A study of Arabidopsis thaliana with 9 samples.

Results

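BGLU27, BGLU28, BGLU31 and BGLU46 are 4 beta-glucosidase genes of Arabidopsis thaliana, taken here by symbol from array entries paired with exactly 1 gene. They are 4 of 22 measured genes with a symbol that starts with BGLU, and of 16550 genes tested in all. Their choice used measured differences between the treated and control leaves, so that their own values are given as a description, with no test. In leaves given BrvC, the signal of BGLU46 was 18.8-fold lower than in control at 6 h and overlapped control at 48 h. BGLU27 and BGLU31 were lower than control on every array at both times, by 4.32 to 6.67-fold. BGLU28 had a low signal that overlapped between all 3 groups. At 6 h 3 of the 4 genes thus had all arrays below control, where 21.6% of all genes did, and at 48 h 2 of the 4 did, where 13.5% of all genes did. These contrasts served to choose the genes, and nothing is read from the shares.

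The leaves were detached from plants of ecotype Col-0 aged 30 days and kept in liquid MS medium in the dark. BrvC is a brevicompanine, one of a group of fungal alkaloids, and was given at 50 µM for 6 h (3 arrays) or 48 h (3 arrays). The control leaves received the solvent DMSO at 0.05% in the same medium (3 arrays), and the labels do not give their time in the dark, so that BrvC cannot be told apart from time in the dark here unless that time was the same. A sample pooled 10 to 15 leaves of 1 genotype, and the labels call the 3 replicates of each group biological without saying what a replicate shares.

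Beta-glucosidases of this family, glycoside hydrolase family 1, cut glucose from small molecules that plants store as glucosides, such as defence compounds, hormones, flavonoids and lignin precursors. The stored glucoside is usually inactive or less active, and the released aglycone is the working compound. BGLU46 and its close relative BGLU45 hydrolyse monolignol glucosides, the storage forms of the alcohols from which lignin is made. BGLU28 is known from sulfur-starved plants, where it takes part in the breakdown of glucosinolates, the sulfur-rich defence glucosides of the cabbage order. No role is given here for BGLU27 or BGLU31.

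Each array gave a log2 signal per probe set, made with RMA per the submitters' processing notes, in which low signals are compressed. Correlations between arrays of a group ran from 0.989 to 0.993 at 6 h, 0.986 to 0.989 at 48 h and 0.978 to 0.984 in control, and with 3 arrays in each group the precision of every difference is limited. The p-values given set a difference against the spread between arrays of the same group, in fits without pairing unless a replicate block is named. The median over the genes tested lay between 3.80 and 3.87 on all arrays, and signals of different probe sets are not compared as levels. Over all entries of the value table, named or not, the array medians were 0.36 higher at 6 h and 0.20 higher at 48 h than in control. With each array centred on that median, every difference from control would be lower by these amounts. Centring on the array median refers below to this median over all entries, not to the median over the genes tested.

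The 4 genes lie on 4 chromosomes in the RefSeq annotation of TAIR10.1, each beside at least 1 other beta-glucosidase gene, and all are protein-coding. BGLU46 (AT1G61820) adjoins BGLU45 on chromosome 1, and BGLU27 (AT3G60120) adjoins BGLU16 on chromosome 3, with DIN2 (also named BGLU30) as the next gene. BGLU28 (AT2G44460) stands between BGLU15 and BGLU29 on chromosome 2, in a row that continues with BGLU17 and PEN2, and BGLU31 (AT5G24540) adjoins BGLU32 on chromosome 5. DIN2, BGLU17 and PEN2 had no entry paired with them in the table used here. Each of the 4 genes had 1 entry. Close copies within the family can share probe sequence, which makes values of neighbours uncertain as separate measurements.

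BGLU46 had log2 signals of 4.90, 4.51 and 4.82 at 6 h, of 8.60, 8.66 and 8.55 at 48 h, and of 8.76, 9.54 and 8.64 in control. All 6 h arrays were far below the others, and 1 of the 48 h arrays (replicate 2) was above the lowest control array (replicate 3), while each 48 h array was below the control array of the same number. The group means were 4.75 ± 0.21 at 6 h, 8.61 ± 0.06 at 48 h and 8.98 ± 0.49 in control (SD, n = 3 each). The difference from control was -4.23 (SE 0.23) at 6 h, where 7 of the 16550 genes had a larger fall, and -0.37 (SE 0.23) at 48 h. Between the treated groups BGLU46 was 14.5-fold higher at 48 h than at 6 h (log2 difference 3.86, SE 0.23), with arrays apart, as they were for 19.2% of all genes in that direction. The 6 h difference lay between -4.40 and -3.95 when single arrays were left out.

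BGLU45, the neighbour that acts on the same kind of glucoside, had signals of 3.89, 3.90 and 4.26 at 6 h, of 5.30, 5.21 and 5.62 at 48 h, and of 6.87, 7.54 and 7.30 in control. Its 3 groups did not overlap, and the 48 h arrays stood between the others, unlike those of BGLU46. BGLU45 fell at 6 h (log2 difference -3.22, SE 0.21, limma adjusted p = 1.92e-07) and at 48 h (-1.86, SE 0.21, adjusted p = 8.46e-05), and was higher at 48 h than at 6 h (1.36, SE 0.21, adjusted p = 0.000353). Whether the courses of BGLU45 and BGLU46 differ was not tested.

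BGLU27 had log2 signals of 3.54, 3.60 and 3.57 at 6 h, of 3.29, 3.18 and 3.16 at 48 h, and of 5.18, 5.96 and 5.90 in control. Both treated groups lay wholly below control, and the 48 h arrays lay below the 6 h arrays by a small margin, a separation in that direction seen in 18.2% of all genes. The differences from control were -2.11 (SE 0.20) at 6 h and -2.47 (SE 0.20) at 48 h, which correspond to signals 4.32-fold and 5.54-fold lower. The spread was wider in control (SD 0.44) than at 6 h (SD 0.03) or 48 h (SD 0.07), with control replicate 1 the lowest.

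The gene next to BGLU27 followed another course. BGLU16 had signals of 6.73, 6.24 and 6.31 at 6 h, of 8.40, 8.21 and 7.83 at 48 h, and of 8.56, 8.53 and 8.36 in control. It fell at 6 h (-2.06, SE 0.20, limma adjusted p = 5.23e-06), was higher at 48 h than at 6 h (1.72, SE 0.20, adjusted p = 3.7e-05) and had -0.34 (adjusted p = 0.332) against control at 48 h. BGLU16 was thus low at 6 h and near control at 48 h, where BGLU27 was low at both times.

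BGLU31 had log2 signals of 3.85, 3.19 and 3.19 at 6 h, of 3.87, 3.53 and 3.89 at 48 h, and of 5.57, 5.78 and 7.09 in control. Every treated array was below every control array, the treated groups overlapped each other, and control replicate 3 stood above the other controls. The differences from control were -2.74 (SE 0.33) at 6 h and -2.38 (SE 0.33) at 48 h. Without control replicate 3 they were -2.27 and -1.91. BGLU32, the gene beside BGLU31, had group means of 2.76 at 6 h, 2.67 at 48 h and 2.68 in control, with differences of 0.08 and -0.02 that did not pass the test (limma adjusted p = 0.849 and 0.978).

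BGLU28 had log2 signals of 3.34, 2.90 and 3.43 at 6 h, of 2.38, 3.27 and 2.87 at 48 h, and of 3.03, 3.48 and 2.36 in control. All 3 groups overlapped, and every signal was below the median over the genes tested on its array. The difference from control was 0.27 (SE 0.29) at 6 h and -0.12 (SE 0.29) at 48 h. With each array centred on its median over all entries, the 6 h difference was -0.09. Without centring, leaving out single arrays moved the 6 h difference between -0.03 and 0.53. Neither neighbour of BGLU28 passed the test. BGLU29 had -0.37 (limma adjusted p = 0.118) at 6 h and -0.01 (adjusted p = 0.97) at 48 h, and BGLU15, which hydrolyses flavonol glycosides, had -0.28 (adjusted p = 0.398) and -0.29 (adjusted p = 0.482).

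**Figure D1:**
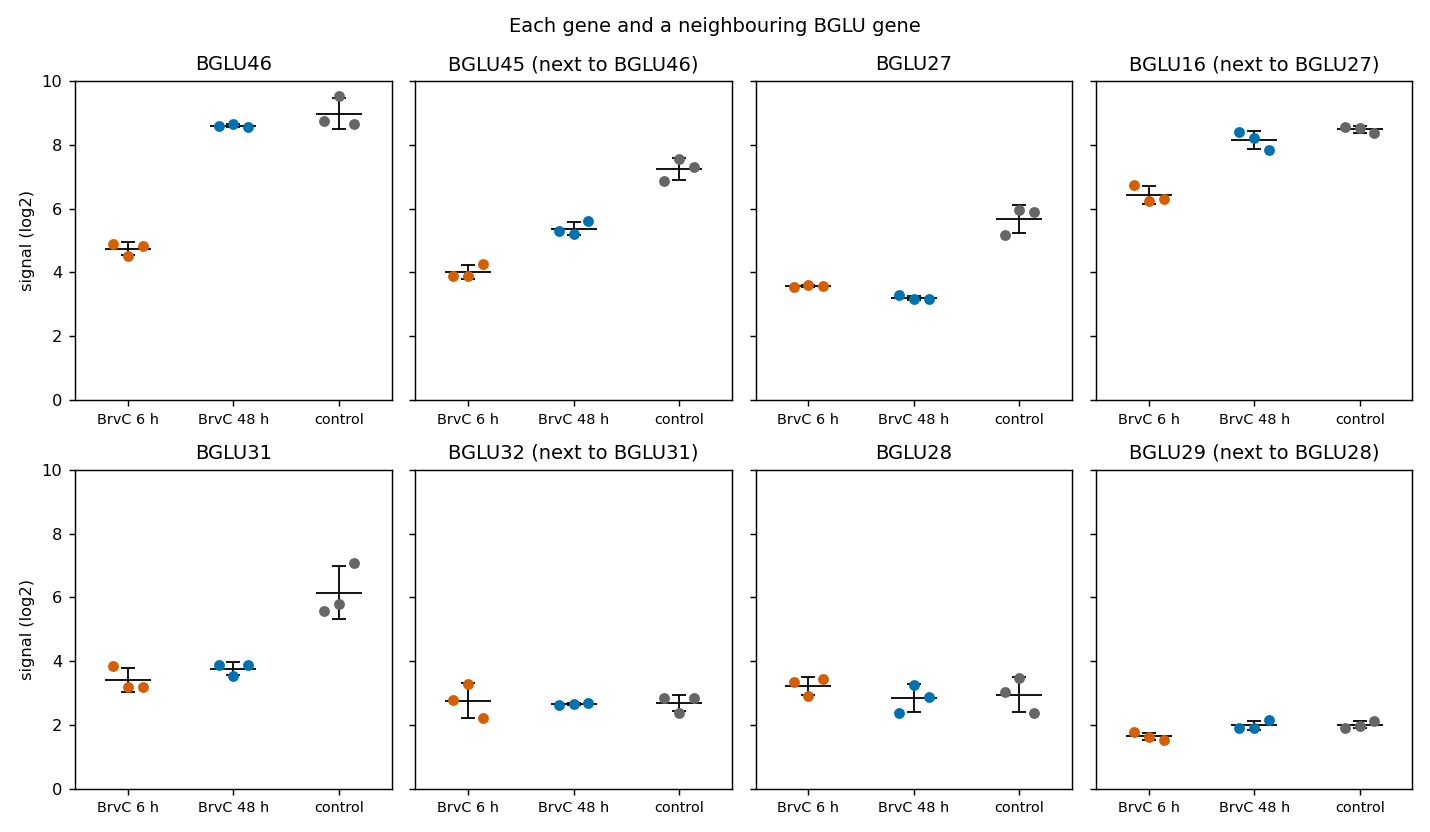
Log2 signal (y axis) on each array for BGLU46, BGLU27, BGLU31 and BGLU28, each followed by a neighbouring BGLU gene, with points for the arrays of BrvC 6 h, BrvC 48 h and control, and a bar with whiskers for the mean and SD (n = 3 each). BGLU46 and BGLU16 were low at 6 h and near control at 48 h, BGLU45 stood between at 48 h, BGLU27 and BGLU31 were low at both times, and BGLU28, BGLU29 and BGLU32 had low signals in all groups.

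The other 18 BGLU genes were tested in the fit to all genes. At 6 h 7 of the 18 changed by limma with Benjamini-Hochberg adjustment over 16550 genes (38.9%), where 27.4% of all genes did, and at 48 h 2 of the 18 changed (11.1%), where 10.6% of all genes did, both of them lower (5.22% of all genes fell and 5.43% rose). Between 48 h and 6 h 6 of the 18 changed (33.3%), where 20.3% of all genes did, with 3 higher (9.62% of all genes) and 3 lower (10.7%). The median difference from control over the 18 was -0.23 at 6 h and -0.21 at 48 h, against -0.10 and -0.06 over all genes tested. The 18 are what remained after the 4 genes had been picked from the family, and the shares are given as counts only. Of the 18, 11 had a mean signal below 4.00, the median over all entries, and BGLU41 alone among these 11 was called in any of the comparisons.

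The genes that fell at 6 h were BGLU45, BGLU16 and BGLU41 (3 of 18, where 13.2% of all genes fell). BGLU41 had signals of 2.89, 2.27 and 3.42 at 6 h, of 3.53, 3.73 and 4.01 at 48 h, and of 4.83, 4.33 and 5.35 in control, in groups that did not overlap. Its difference from control was -1.97 (SE 0.30, limma adjusted p = 0.000223) at 6 h and -1.08 (SE 0.30, adjusted p = 0.0335) at 48 h. The 48 h call of BGLU41 was lost without any 1 of 5 arrays, namely 6 h replicate 1, 48 h replicates 1 and 2, and control replicates 1 and 3 (adjusted p = 0.0518 to 0.117), and over all entries of the value table (adjusted p = 0.0776).

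BGLU44, BGLU42, BGLU25 and BGLU40 rose at 6 h (4 of 18, where 14.2% of all genes rose). BGLU44, which acts on beta-mannosides, had 9.28, 9.03 and 9.26 at 6 h, 7.84, 8.15 and 8.23 at 48 h, and 7.66, 7.54 and 7.74 in control. Its 6 h arrays were the highest and its 48 h arrays stood just above control, with differences of 1.54 (SE 0.17, limma adjusted p = 1.71e-05) and 0.43 (adjusted p = 0.144). BGLU42, known from roots for its part in systemic resistance induced by soil microbes, rose by 1.19 (SE 0.25, adjusted p = 0.00257) at 6 h. BGLU25 rose by 1.01 (SE 0.16, adjusted p = 0.000366) and BGLU40 by 0.64 (SE 0.16, adjusted p = 0.00762). None of these 4 passed the test against control at 48 h in limma (BGLU44 alone of them had an unadjusted p under 0.05). With each array centred on its median the split of calls at 6 h among the 18 genes was 3 higher and 8 lower in place of 4 and 3, with BGLU40 no longer called (0.28, adjusted p = 0.179), and over all genes 17.3% of the calls were higher in place of 51.9% (34.1% after renewed quantile normalization). At 48 h the higher share of calls over all genes was 51.0%, against 23.1% after centring and 33.6% after quantile normalization, and between the times 47.4%, against 66.0% after centring.

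BGLU33, which releases abscisic acid from its glucose ester in the vacuole, had 6.97, 6.79 and 7.12 at 6 h, 6.05, 6.52 and 7.06 at 48 h, and 6.69, 7.04 and 8.27 in control. The groups overlapped, and its differences of -0.37 and -0.79 did not pass the test (limma adjusted p = 0.473 and 0.185). With the replicate number as a block, which pairs control and 48 h arrays, the 48 h difference of BGLU33 passed (adjusted p = 0.0468). The remaining 10 BGLU genes had differences between -0.65 and 0.21 at 6 h and between -0.37 and 0.16 at 48 h, and passed in neither comparison with control. After centring, 5 of them passed as lower at 6 h, namely BGLU15, BGLU21, BGLU22, BGLU24 and BGLU29 (BGLU29 -0.73, adjusted p = 0.00349), and BGLU24 also passed without control replicate 3 (-0.92, adjusted p = 0.0143). The 10 genes included BGLU21 and BGLU22, which hydrolyse coumarin glucosides in roots. Family genes carried under other symbols in the annotation were ATA27 (BGLU20; 0.19 and -0.03) and PYK10 (BGLU23, the main protein of endoplasmic reticulum bodies; 0.16 and 0.39), and neither passed the test (limma adjusted p = 0.598 and 0.956, and 0.657 and 0.36).

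Within the range of all 22 genes, -4.23 to 1.54 at 6 h and -2.47 to 0.43 at 48 h, BGLU46 marked the lower end at 6 h and BGLU27 at 48 h. From the lowest difference upwards the order at 6 h was BGLU46, BGLU45, BGLU31, BGLU27, BGLU16 and BGLU41, of which the last 3 lay closer to each other than their SE. At 48 h the order was BGLU27, BGLU31, BGLU45 and BGLU41, and BGLU27 and BGLU31 were again closer than their SE. BGLU28 stood next below the 4 genes that rose at 6 h.

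**Figure D2:**
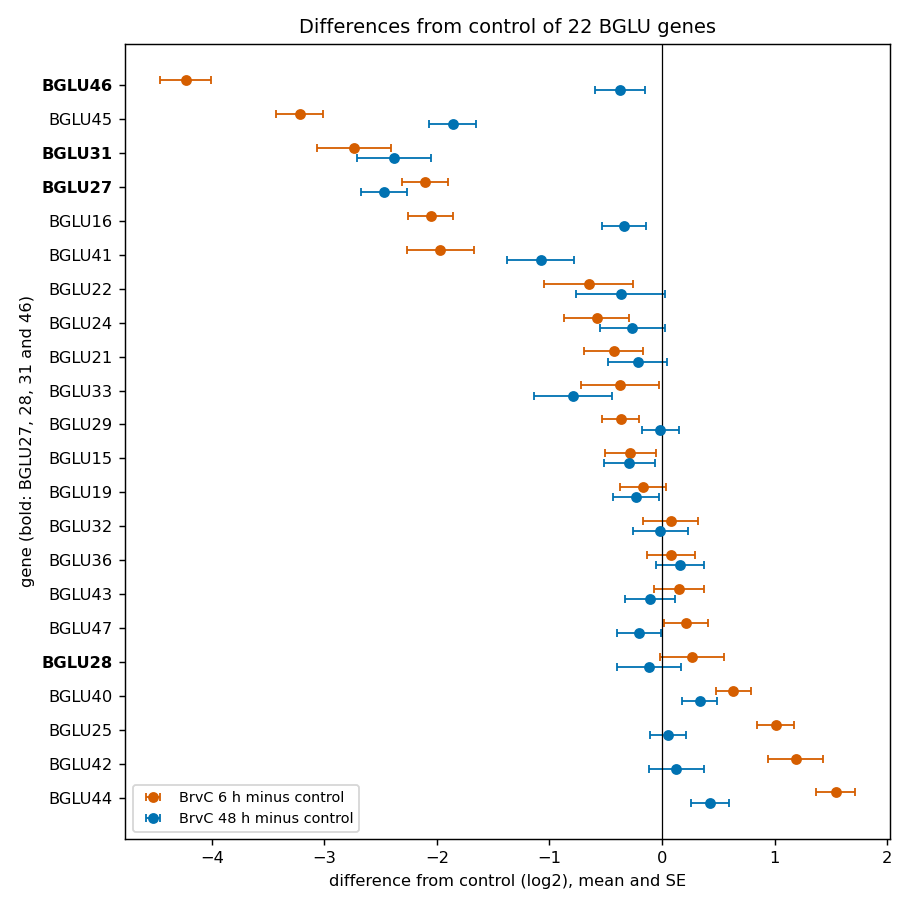
Difference from control in log2 units (x axis) for the 22 BGLU genes (y axis, ordered by the 6 h difference, with BGLU27, BGLU28, BGLU31 and BGLU46 in bold), with points for BrvC 6 h minus control and BrvC 48 h minus control and whiskers for the SE. The points of BGLU27, BGLU31, BGLU45 and BGLU41 lie well below 0 at both times, those of BGLU46 and BGLU16 only at 6 h, and those of BGLU28 near 0.

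The profiles of the 4 genes were set against 1740 genes with a symbol that does not start with BGLU. The measure was the root mean square difference over the 9 arrays, each gene centred on its own mean. The 4 genes were also compared with each other, and the 18 other BGLU genes were left out. BGLU27 and BGLU31 differed from each other by 0.50 on this measure, against 1.20 to 2.08 for every other pair of the 4 genes. The genes closest to BGLU46 were GH3.17 (0.47), which conjugates auxin to amino acids, MCCB (0.51), a subunit of an enzyme of leucine breakdown, and SWEET2 (0.56), a sugar transporter. BGLU46 itself varied by 1.93 about its mean. RXW8 was the closest gene to BGLU27 (0.28) and also to BGLU31 (0.39).

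LCR37 (0.38) and LHB1B2 (0.40), a light-harvesting chlorophyll-binding protein, followed for BGLU27, and PSB27 (0.46), a photosystem II assembly protein, and UPB1 (0.55), a transcription factor, for BGLU31. RXW8 had 4.01, 3.74 and 4.00 at 6 h, 3.68, 3.51 and 3.91 at 48 h, and 5.70, 5.66 and 6.48 in control, so that its treated arrays all lay below control, with control replicate 3 the highest as in BGLU31. For BGLU28 the closest genes were VGD1 (0.24), ZW2 (0.26) and SK16 (0.26), where BGLU28 itself varied by 0.40 about its mean, and a flat profile is close to any other flat profile. These likenesses describe 9 arrays in 3 groups and were not tested.

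**Figure D3:**
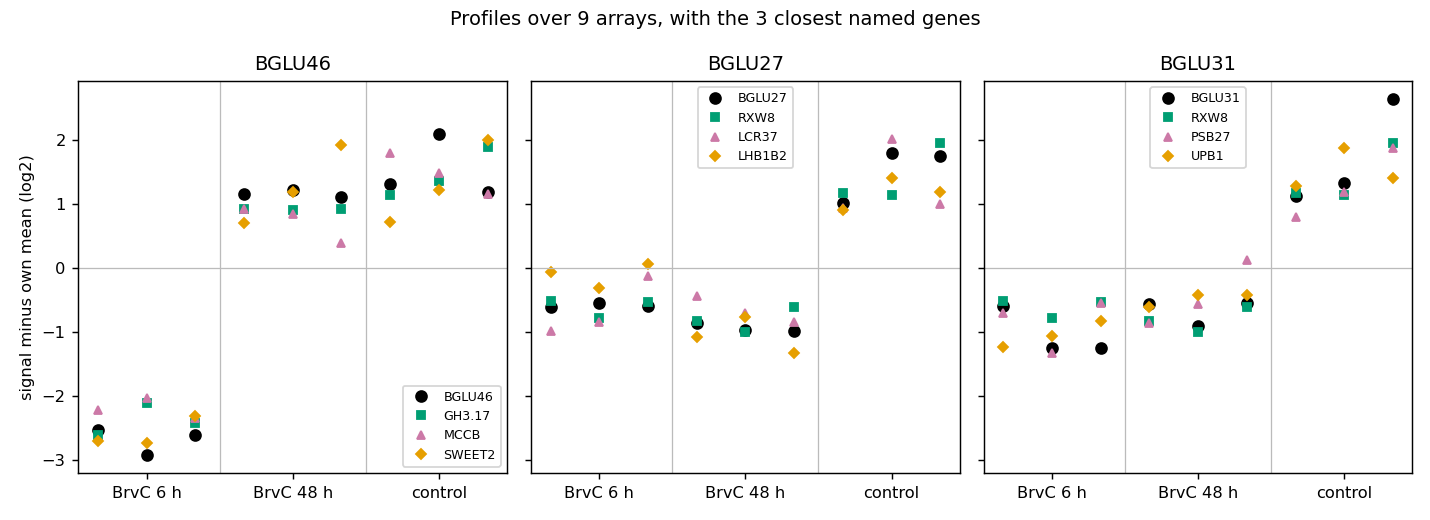
Log2 signal minus the gene's own mean (y axis) on the 9 arrays, grouped as BrvC 6 h, BrvC 48 h and control (x axis). Black circles show BGLU46, BGLU27 and BGLU31, and coloured marks show the 3 closest genes with a symbol that does not start with BGLU. The genes near BGLU46 were lowest on the 6 h arrays, with the 48 h arrays of GH3.17 and MCCB also below control, and those near BGLU27 and BGLU31 were below control on the arrays of both treated groups.

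Lists of genes that work beside these enzymes were examined in the same limma fit, with few members measured. Of 29 monolignol and lignin genes 6 were measured, and none was called at 6 h (2 at an unadjusted p under 0.05), where 27.4% of all genes were. HCT, which makes the shikimate esters on the way to lignin, had 0.45 (SE 0.19, limma adjusted p = 0.103) at 6 h and rose by 0.67 at 48 h (SE 0.19, adjusted p = 0.0417). That call of HCT was lost without any 1 of 7 arrays, all those of 6 h and 48 h and control replicate 3 (adjusted p up to 0.131), and after centring (adjusted p = 0.153). CCR2, a cinnamoyl-CoA reductase, had 6.67, 6.65 and 6.74 at 6 h, 6.60, 7.31 and 7.84 at 48 h, and 6.62, 7.53 and 8.69 in control. Its values overlapped between all groups, with differences of -0.93 (adjusted p = 0.12) and -0.36 (adjusted p = 0.655). At 6 h CCR2 passed as lower without control replicate 1 (-1.42, adjusted p = 0.0127), after centring (-1.29, adjusted p = 0.0164) and with the replicate block (adjusted p = 0.0264). UGT72E1, UGT72E2 and UGT72E3, which add the glucose that BGLU45 and BGLU46 take off, had differences between -0.39 and 0.32 from control and were called at neither time. UGT72E2 (log2 signals of 1.31 to 2.07) and UGT72E3 (1.25 to 1.97) lay near the lower end of the scale, which limits what can be seen of a fall. The same holds for PRX72 (1.97 to 2.65), also in the list and not called. At 48 h all arrays of UGT72E2 were below control, as for 13.5% of all genes. The median of the list was 0.01 at 6 h and 0.03 at 48 h.

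Glucosinolate synthesis and transport genes were measured in 4 of 32 cases. All 4 rose at 6 h, where 14.2% of all genes did, and 3 at 48 h, where 5.43% did, with medians of 0.99 and 0.88 against -0.10 and -0.06 over all genes. The glutathione transferase GSTU20 had 6.42, 6.43 and 6.53 at 6 h, 5.49, 4.46 and 5.05 at 48 h, and 2.90, 3.37 and 2.82 in control, with no overlap between the groups. It rose by 3.43 (SE 0.24, limma adjusted p = 3.9e-07) at 6 h and by 1.97 (SE 0.24, adjusted p = 0.000168) at 48 h. The transporters GTR1 and GTR2 rose by 1.16 (SE 0.22) and 0.82 (SE 0.20) at 6 h, and the glucosyltransferase UGT74B1, which adds the glucose in glucosinolate synthesis, by 0.61 (SE 0.17). At 48 h UGT74B1 rose by 0.76 (adjusted p = 0.0106) and GTR2 by 1.01 (adjusted p = 0.00528), while GTR1 had 0.09 (limma adjusted p = 0.842). With each array centred on its median, GSTU20 and GTR1 alone of the 4 were called at 6 h, and UGT74B1 had 0.25 (adjusted p = 0.265). UGT74B1 also lost its call without 6 h replicate 2 (adjusted p = 0.0616), and at 48 h after centring (adjusted p = 0.0631). No member of the list of glucosinolate breakdown partners was measured, and of 18 sulfur deficiency genes 1 was measured, under a locus name alone, and is not described.

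Genes known to rise in darkness and sugar starvation were measured in 3 of 21 cases, and all 3 fell at 6 h, where 13.2% of all genes did, with a median of -2.09 (-0.10 over all genes). MCCB fell by 3.69 (SE 0.21), AKINBETA1, a regulatory subunit of the energy-sensing kinase SnRK1, by 2.09 (SE 0.16), and the pyruvate orthophosphate dikinase PPDK by 1.34 (SE 0.17). All 3 were higher at 48 h than at 6 h (2.93, 1.37 and 0.91), as 9.62% of all genes were. At 48 h MCCB (-0.76, limma adjusted p = 0.0322) and AKINBETA1 (-0.72, adjusted p = 0.00973) were still lower than control and PPDK had -0.43 (adjusted p = 0.141). All 48 h arrays of PPDK were below control, and it passed as lower after centring (-0.62, limma adjusted p = 0.0444). The 48 h call of MCCB was lost without 6 h replicate 1, 48 h replicates 2 or 3, or control replicates 1 or 2 (adjusted p up to 0.124).

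Of 14 genes of endoplasmic reticulum bodies, the compartment that holds PYK10 and related beta-glucosidases, 7 were measured. JAL23 alone was called at 6 h (0.86, SE 0.25, limma adjusted p = 0.0213) and JAL34 alone at 48 h (0.77, SE 0.20, adjusted p = 0.0245), both jacalin-related lectins. That was 14.3% of the 7 at each time, where 27.4% of all genes were called at 6 h and 10.6% at 48 h. The list medians were -0.16 and -0.01. JAL34 had -0.55 at 6 h (adjusted p = 0.0565). The direction of the 6 h calls depended on the scaling: centring lost JAL23 and called NAI2, JAL22, JAL33 and JAL34, all lower, and renewed quantile normalization lost JAL23 and called NAI2 (-0.63) and JAL34 (-0.84), both lower. JAL34 (1.32, adjusted p = 0.000329) and the body protein NAI2 (0.66, adjusted p = 0.0196) were higher at 48 h than at 6 h, as 9.62% of all genes were. The call of JAL23 was lost without 6 h or control replicates 1 or 2, that of JAL34 against control without 48 h replicates 1 or 2 or control replicate 3, and that of NAI2 without 6 h replicates 1 or 3 or 48 h replicates 2 or 3 (adjusted p up to 0.108). Those of JAL23 and JAL34 against control were also lost after renewed quantile normalization (0.53, adjusted p = 0.114, and 0.57, adjusted p = 0.106).

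The labelled tissue was checked against marker genes. Of 23 leaf mesophyll markers 4 were measured, namely RCA, LHCB4.1, PRK and SBPASE, genes of carbon fixation and light harvesting. At 6 h RCA (-0.58) and LHCB4.1 (-1.27) fell and SBPASE rose (1.58), and at 48 h RCA (-1.42), PRK (-2.11) and SBPASE (-0.83) fell (limma adjusted p = 2.89e-05 to 0.0318). LHCB4.1 had -0.68 at 48 h (adjusted p = 0.0658), with all arrays below control, and passed with the replicate number as a block (adjusted p = 0.0361), after centring (0.0128), after renewed quantile normalization (0.0463) and without control replicate 1 (0.0250). The calls of RCA at 6 h and of SBPASE at 48 h were each lost without any 1 of 4 arrays, control replicates 1 and 2 among them for both. The summed linear signal of the 4 markers was 995 to 1176 at 6 h, 674 to 741 at 48 h and 1444 to 1691 in control, in groups that did not overlap. This sum rests mostly on RCA and LHCB4.1, the brightest of the 4. At 6 h the markers went different ways, with PRK at 0.30 (limma adjusted p = 0.326) and SBPASE higher. Their median difference at 6 h was -0.14, against -0.10 over all genes. BGLU27 and BGLU31 were low in the groups where this sum was low, and the part of such markers in their result was not tested. In bulk leaves fewer cells of a type and less RNA per cell cannot be told apart.

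For the lignifying tissue where BGLU45 and BGLU46 are known to be active, 1 of 16 vascular and fibre markers was measured. IRX10, a xylan synthesis enzyme of secondary walls, had a linear signal of 85.4 to 99.2 at 6 h, 74.4 to 78.0 at 48 h and 61.6 to 93.5 in control. Each treated group overlapped control. The part of vascular tissue in the values of BGLU46 was not tested. Its difference from control was 0.25 at 6 h (limma adjusted p = 0.357). The guard cell regulator FAMA, 1 of 5 guard cell markers measured, was higher at 6 h (1.20, SE 0.17, adjusted p = 0.00014) and at 48 h (0.62, adjusted p = 0.0326), the second call being lost without any 1 of 7 arrays, all but 6 h replicate 3 and control replicate 3, and after centring (adjusted p = 0.117). EXPA7, 1 of 6 root markers measured, had log2 signals of 2.22 to 2.81 over all arrays. No marker of epidermis and trichome (6 listed) or of seed and flower (9 listed) was measured.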

How the data were processed

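The authors deposited 1 table of log2 values with a column per array. Per the submitters' processing notes they used oligo, RMA and limma, and versions, genome build and array annotation are not given in the sources used here. Values from 0.298 to 13.9 showed the log2 scale. Of 38408 entries 16722 were paired with 1 gene by the platform annotation, 759 with several, and 20927 were not listed. The brightest entry was kept for 146 genes with several, which left 16550 genes, with symbols updated through RefSeq TAIR10.1. One linear model of group means over the 9 arrays was fitted in R 4.3.3 with limma 3.58.1 (6 residual and 7.04 prior degrees of freedom), a two-sided moderated test with Benjamini-Hochberg adjustment over 16550 genes and calls at 0.05, and the fit was tested on simulated data. Differences are of group means.

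The 4 genes, the gene lists and the tests were chosen with earlier results of these data known. Named were the 4 genes, all BGLU genes and the 3 closest profiles per gene, BGLU genes left out. Also named were called members of the lists (at most 4 per list and comparison) and measured markers. Members of lists that were not called, and arrays of RXW8, were added after their values were seen. UGT74C1 and the sulfur deficiency gene, with locus names alone in the annotation, were not used. Same-numbered control and 48 h arrays deviated together (correlations 0.302, 0.242 and 0.539), but not control and 6 h arrays (0.034, -0.032 and 0.012). The replicate number pairs control and 48 h as a property of the data alone. Alternatives were other entries, filters, scalings, spreads, blocks, thresholds and left-out arrays.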

Additional observations from a re-analysis of the deposited data

Results flagged for a closer look

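For 6 of the 18 other BGLU genes the difference from control at 48 h was not the same as at 6 h. This was by the limma test of 48 h minus 6 h over all genes, and the 4 genes themselves were not tested. BGLU16 (1.72, adjusted p = 3.7e-05), BGLU45 (1.36, adjusted p = 0.000353) and BGLU41 (0.89, adjusted p = 0.0497) were higher at 48 h, and BGLU44 (-1.12, adjusted p = 0.000361), BGLU42 (-1.06, adjusted p = 0.00763) and BGLU25 (-0.96, adjusted p = 0.000833) were lower. The call of BGLU41 was lost without 6 h replicates 1 or 2, any 48 h replicate or control replicate 1. The highest adjusted p was 0.22, without 6 h replicate 2 (0.60). That call was also lost over all entries of the value table (limma adjusted p = 0.111) and with an intensity trend and robust spread in limma (adjusted p = 0.0517).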

How the results depend on the processing

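The direction of the BGLU46, BGLU27 and BGLU31 differences at 6 h, and of BGLU27 and BGLU31 at 48 h, was the same under both scalings and without any single array. Centring each array on its median moved the 6 h difference to -4.59 for BGLU46 and -2.47 for BGLU27, and renewed quantile normalization moved that of BGLU27 to -2.38. Centring gave 8308 calls at 6 h against 4531, with 11 of the 18 other BGLU genes, 2 glucosinolate, 1 lignin and 4 endoplasmic reticulum body genes (all 4 lower, without JAL23), and at 48 h 0 lignin and 0 endoplasmic reticulum body genes. Quantile normalization gave 2 endoplasmic reticulum body genes at 6 h (both lower, without JAL23) and 0 at 48 h. Over all entries 10484 were called at 6 h, 3824 at 48 h (with 1 other BGLU gene) and 6075 between the times, against 4531, 1762 and 3356 over the genes. Without low genes 1 other BGLU gene was called at 48 h, since BGLU41 (mean signal 3.82) was itself removed by the filter at 4.00. At an adjusted p of 0.01, 1 other BGLU gene was called at 48 h. That threshold left 921 calls at 48 h and 2083 between the times. With the replicate number as a block 5027, 2134 and 3794 genes were called at 6 h, at 48 h and between the times, with 7, 3 and 6 other BGLU genes. At 6 h the block also called 1 lignin gene (CCR2) and 2 endoplasmic reticulum body genes. Paired with control alone, in a fit chosen after seeing the data, 2312 genes and 3 other BGLU genes were called at 48 h. Leaving out single arrays gave 7 to 8 other BGLU genes at 6 h and 1 to 2 at 48 h, 0 to 1 lignin genes at either time, 0 to 2 endoplasmic reticulum body genes at 6 h, 0 to 1 at 48 h and 1 to 2 between the times, and 1 to 2 starvation genes at 48 h. Apart from the removal of BGLU41 by the filter, the cause of these changes was not tested. Signals near the lower end of the scale limit what can be seen of BGLU28 and of the low BGLU genes.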

Other observations

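Same-numbered arrays of the 48 h and control groups had nearly equal values for SWEET2, with 8.80, 9.30 and 10.02 at 48 h and 8.82, 9.32 and 10.10 in control for replicates 1, 2 and 3. Its 6 h values were 5.38, 5.35 and 5.79. BGLU33 was highest on replicate 3 in each group. The 4 beta-glucosidase genes did not share such an order in control, where replicate 1 was the lowest for BGLU27 and BGLU31, replicate 2 the highest for BGLU46, BGLU27 and BGLU28, and replicate 3 the highest for BGLU31 and the lowest for BGLU46 and BGLU28.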
